A study of Mus musculus with 9 samples.

Results

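The 8 genes described here encode components and regulators of the complement system, and their transcripts were measured in mouse hearts. They are the 3 chains of C1q (C1qa, C1qb and C1qc), the protease C1ra, the central proteins C4b and C3, the protease Cfd and the inhibitor Serping1. They were chosen by name, and all 8 were found among the 13539 genes of the deposited table. In OMA1 knockout hearts under isoproterenol, 4 of them (C1qa, C1qc, C1ra and Serping1) were higher than in untreated knockout hearts. Of all tested genes, 23.9% were called higher there. Of 7 members tested, only C1ra was called higher in treated knockout than in treated wild-type hearts, where 12.0% of all tested genes were. C3 and C4b were lower in treated wild-type than in untreated knockout hearts, where 16.9% of all tested genes were called lower. Each of these 3 calls was lost when any 1 of several libraries was left out. The calls of C1qa and C1ra against untreated knockout hearts were also lost without certain single libraries, while those of C1qc and Serping1 were kept. Cfd, readily detected in untreated hearts, was nearly absent from all treated hearts.

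Complement is a cascade of plasma and tissue proteins that tags cells and debris for removal. In the classical pathway C1q binds antibodies or altered surfaces, its partner proteases C1r and C1s become active in turn, and C1s cuts C4 and C2, whose fragments form an enzyme that cleaves C3. In the alternative pathway factor D, the product of Cfd, cuts factor B to form another enzyme that cleaves C3. C1 inhibitor, the product of Serping1, holds C1r and C1s in check. Macrophages are the main source of C1q in most tissues, fibroblasts and other stromal cells make C1r, C3, C4 and C1 inhibitor, and fat cells are the best known source of factor D, also called adipsin.

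The hearts came from male mice of 12 weeks on the C57BL/6JOlaHsd background, with 3 libraries in each of 3 groups. Treated knockout hearts lacked OMA1, a stress protease of the inner mitochondrial membrane, and had received the β-adrenergic agonist isoproterenol from implanted minipumps at 10 mg/kg per day for 7 days. Treated wild-type hearts had received the same drug and pump, and untreated knockout hearts lacked OMA1 and are labelled as non-treated controls. Hearts of untreated wild-type mice were not analysed here, so whether genotype changed the response to treatment could not be tested, and drug and pump cannot be told apart. The labels give no animal numbers, and p-values therefore rest on the spread between libraries, which may be partly technical. They do not say how the knockout was made.

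Values are the deposited normalized counts, and recovered reads ran to between 6933879 and 12187701 per library. Oma1 itself was at 6.74, 5.73 and 6.25 in treated knockout hearts, 22.0, 19.9 and 17.7 in treated wild-type hearts and 6.52, 9.10 and 6.63 in untreated knockout hearts. The wild-type libraries were thus apart from all knockout libraries, as labelled. Markers of cardiomyocytes, the heart muscle cells, summed to between 40102 and 49609 in every library, and all 8 were listed. Some libraries stood apart within their groups. Treated knockout replicate 2 had the highest share of mitochondrial transcripts (42.5%) and haemoglobin markers summing to 3528, against 738 and 998 in the rest of its group. Treated wild-type replicate 3 had Postn, a matrix protein of activated fibroblasts, at 1043, against 198 and 269.8. Untreated knockout replicate 3 had the most fat cell and mesothelial transcripts. Values without these libraries stand beside the C1q, Serping1, C3 and C4b results that they moved.

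The genes of C1qa, C1qc and C1qb lie side by side on the minus strand of chromosome 4, at 136880129 to 136898803 on GRCm38, a stretch of 18.7 kb that lies 33.5 Mb from Oma1. The promoters of C1qb and C1qc are shown because the C1q chains all peaked in the same library of each group. That of C1ra is shown because C1ra was called against both other groups, and that of C3 because its pattern differed from theirs. Each run of 300 bases, from RefSeq on GRCm38.p6, reaches from 250 bases before to 50 bases after the start annotated there. It is read 5′ to 3′ along the gene's own strand. GENCODE, used for the gene positions, places the 5′ ends of C1ra (124512405) and C1qc (136893065) further upstream. Most of each of these 2 windows thus lies inside the gene as GENCODE places it. Capitals mark matches to the 4 motifs searched on both strands.
C1qb (chr4:136886151-136886450, minus strand): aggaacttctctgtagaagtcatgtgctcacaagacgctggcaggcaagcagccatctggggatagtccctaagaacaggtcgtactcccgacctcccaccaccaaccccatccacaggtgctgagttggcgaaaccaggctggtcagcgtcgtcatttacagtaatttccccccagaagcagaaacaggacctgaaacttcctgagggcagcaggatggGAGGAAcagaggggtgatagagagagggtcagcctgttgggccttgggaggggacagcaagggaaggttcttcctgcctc
C1qc (chr4:136892865-136893164, minus strand): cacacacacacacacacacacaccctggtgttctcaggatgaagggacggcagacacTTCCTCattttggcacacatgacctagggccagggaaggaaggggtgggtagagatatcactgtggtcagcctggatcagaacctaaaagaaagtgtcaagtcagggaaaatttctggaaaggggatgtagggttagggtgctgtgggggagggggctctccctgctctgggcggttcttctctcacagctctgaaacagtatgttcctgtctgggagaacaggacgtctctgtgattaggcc
C1ra (chr6:124512371-124512670, plus strand): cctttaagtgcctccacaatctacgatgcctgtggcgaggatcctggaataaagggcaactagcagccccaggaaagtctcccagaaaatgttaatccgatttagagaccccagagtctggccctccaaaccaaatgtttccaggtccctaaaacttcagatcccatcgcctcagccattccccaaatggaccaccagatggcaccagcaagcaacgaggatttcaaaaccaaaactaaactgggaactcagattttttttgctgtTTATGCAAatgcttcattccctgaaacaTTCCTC
C3 (chr17:57228087-57228386, minus strand): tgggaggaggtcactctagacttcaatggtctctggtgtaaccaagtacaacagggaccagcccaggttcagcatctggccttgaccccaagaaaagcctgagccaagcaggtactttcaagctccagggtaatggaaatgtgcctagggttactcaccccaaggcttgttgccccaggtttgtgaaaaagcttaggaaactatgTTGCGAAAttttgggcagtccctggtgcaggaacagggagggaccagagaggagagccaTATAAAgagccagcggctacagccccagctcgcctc

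The motifs were GAGGAA, a core bound by ETS factors such as PU.1, GAAA followed by 2 bases of any kind and a second GAAA (the interferon response), TTGCNNAA of C/EBP factors and the TATA box TATAAA. The C1qb promoter held GAGGAA from base -30 to -25, counted from the start at 0, and the C1qc promoter held it on the other strand from base -193 to -188. In C1ra the same motif lay on the other strand at bases 44 to 49, and the C/EBP type at bases 16 to 23, also on the other strand. The C3 promoter held TTGCGAAA at bases -45 to -38 and a TATAAA at bases 14 to 19, after the annotated start. The interferon motif was in none of them, and the promoter of Cfd, chr10:79890603-79890902, held 0 of the 4 motifs. Among 32851 promoters of the same length, 28.3% held GAGGAA, 3.44% the interferon motif, 10.8% TTGCNNAA and 13.6% TATAAA, so GAGGAA is common in such windows. The table held promoters for 5 of the 8 members. C1qa, C4b and Serping1 were the others.

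Of the 8 members, 7 reached a normalized count of at least 10 in at least 3 libraries and were tested with limma across 8543 genes. Cfd reached 10 in untreated replicates 1 and 3 only and was not tested there. Between treated knockout and treated wild-type hearts, 1 of the 7 was called higher (C1ra) and 0 lower, at an adjusted p under 0.05, where 12.0% of all tested genes were called higher, 15.9% lower and 27.8% in either direction. By limma 3 members were higher, and 0 lower, before adjustment (p under 0.05), and edgeR and DESeq2 called C1ra alone. All 7 differences were above 0, with a median log2 difference of 0.33 against -0.01 over all tested genes. Between treated and untreated knockout hearts 4 of the 7 were called higher and 0 lower, where 23.9% of tested genes were called higher, 27.4% lower and 51.4% in either direction. Before adjustment 5 were higher, with 0 lower, and edgeR and DESeq2 called the same number as limma. The median was 0.37, against -0.02 over all tested genes. Between treated wild-type and untreated knockout hearts, which differ in both genotype and treatment, 1 was called higher (Serping1), where 16.4% of tested genes were, and 2 lower (C3 and C4b), where 16.9% were. There edgeR called 1 higher and 1 lower, and DESeq2 1 higher and 0 lower. In either direction 33.2% of tested genes were called there. Counting only genes whose groups did not overlap, treated knockout hearts had 2 members above and 0 below treated wild-type hearts (20.0% of tested genes were above and 23.6% below). They had 4 above and 0 below untreated knockout hearts (29.2% and 33.4%), and treated wild-type hearts had 1 above and 1 below untreated knockout hearts (23.4% and 24.1%). The comparisons share libraries and are not independent of each other.

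**Figure D1:**
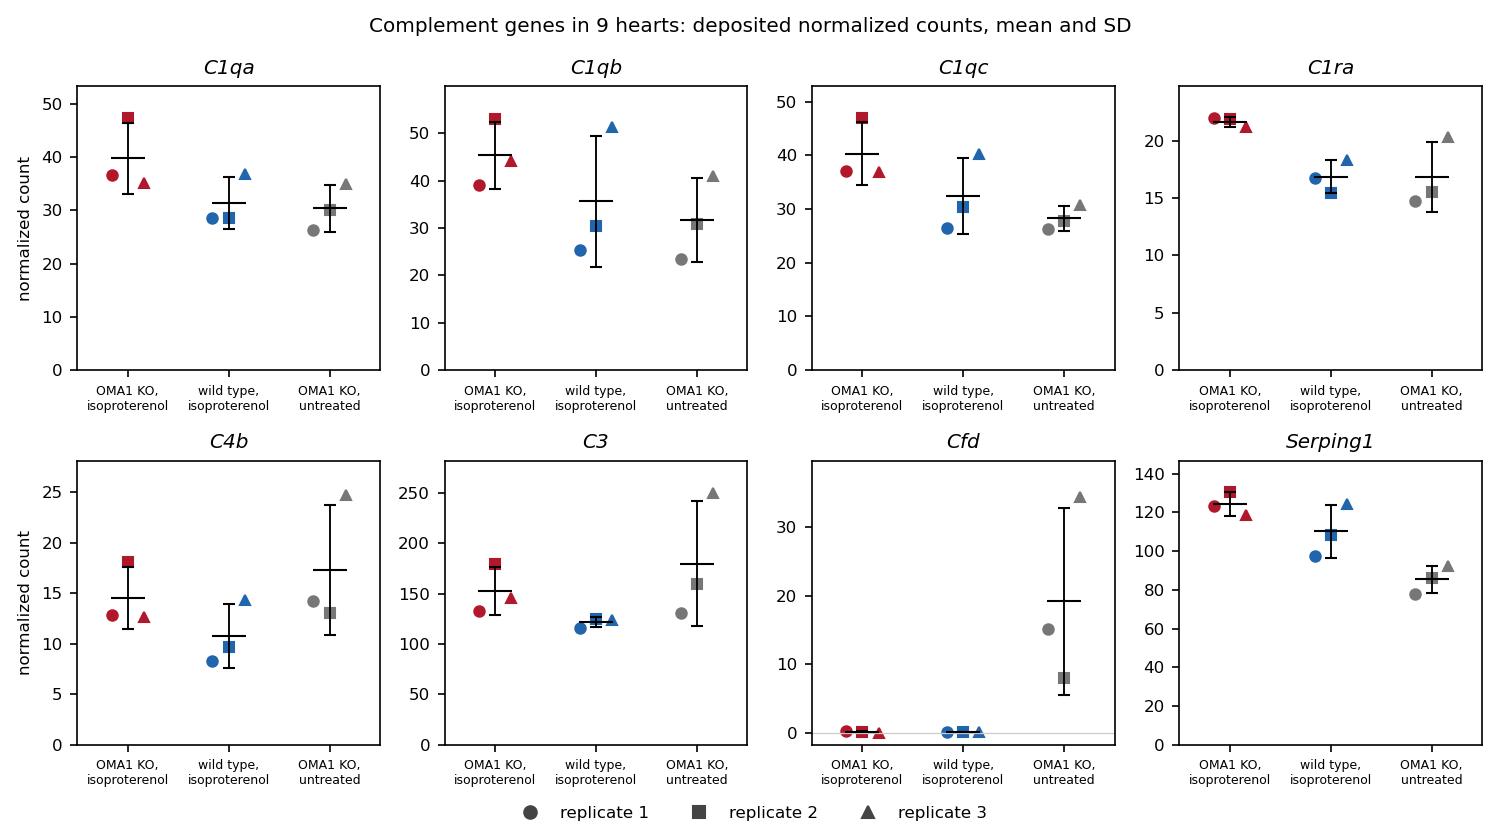
Deposited normalized counts of the 8 complement genes in each of 9 hearts, with 1 panel per gene. Points are libraries (shape gives the replicate number), black bars the group mean and SD (n = 3). C1ra in treated knockout hearts lies above both of the other groups, C3 in treated wild-type hearts lies below the untreated hearts, and Cfd is near 0 in all 6 treated hearts.

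C1q is built from 3 chains, each needed for the molecule, and their transcripts were read from neighbouring genes. C1qa (ENSMUSG00000036887, chromosome 4, 136895917 to 136898803) was at 36.6, 47.4 and 35.2 in treated knockout hearts, 28.6, 28.6 and 36.9 in treated wild-type hearts and 26.2, 30.0 and 35.0 in untreated knockout hearts. All treated knockout libraries lay above the untreated ones, though the lowest barely so, while treated wild-type replicate 3 fell within the treated knockout range. C1qa was higher in treated than in untreated knockout hearts, at 39.7 ± 6.69 and 30.4 ± 4.38 (SD, n = 3 each), a log2 difference of 0.37 ± 0.13 (SE, adjusted p = 0.031). Against treated wild-type hearts, at 31.4 ± 4.80, the log2 difference was 0.33 ± 0.13 (adjusted p = 0.079). Its 95% interval, unadjusted for the number of genes, was 0.04 to 0.61.

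C1qc (ENSMUSG00000036896, chromosome 4, 136889804 to 136893065) had 37.0, 47.0 and 36.8 in treated knockout hearts, 26.5, 30.4 and 40.3 in treated wild-type hearts and 26.2, 27.8 and 30.8 in untreated knockout hearts. Treated knockout hearts again lay above every untreated heart, and treated wild-type replicate 3 again reached into their range. The rise over untreated knockout hearts was 0.49 ± 0.13 on the log2 scale (40.3 ± 5.83 against 28.3 ± 2.34, adjusted p = 0.0081). The call was kept without any 1 library. Against treated wild-type hearts (32.4 ± 7.09) the difference was 0.32 ± 0.13 (adjusted p = 0.093).

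C1qb (ENSMUSG00000036905, chromosome 4, 136880129 to 136886187) varied most of the chains, at 39.0, 52.9 and 44.0 in treated knockout hearts, 25.3, 30.3 and 51.3 in treated wild-type hearts and 23.4, 30.7 and 41.0 in untreated knockout hearts. In both of the other groups replicate 3 was the highest and overlapped the treated knockout hearts. C1qb averaged 45.3 ± 7.08 in treated knockout hearts, 35.7 ± 13.8 in treated wild-type hearts and 31.7 ± 8.84 in untreated knockout hearts. The log2 difference from treated wild-type hearts was 0.39 ± 0.22 (adjusted p = 0.20, 95% interval -0.09 to 0.87). That from untreated knockout hearts was 0.52 ± 0.22 (adjusted p = 0.063), the largest of the 3 chains but not past the threshold.

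The C1q calls between the treated groups, and those of C1qa and C1qb against untreated hearts, changed with the libraries and settings used. Without treated wild-type replicate 3, all 3 chains were called higher in treated knockout than in treated wild-type hearts, with log2 differences of 0.45 for C1qa (adjusted p = 0.021), 0.68 for C1qb (adjusted p = 0.013) and 0.48 for C1qc (adjusted p = 0.0085). Without treated knockout replicate 2 the differences fell to 0.20, 0.27 and 0.20 (adjusted p = 0.31, 0.48 and 0.33). They were 0.27, 0.18 and 0.19 when treated wild-type replicate 1 was left out (adjusted p = 0.21, 0.58 and 0.33). With each library corrected for transcript length and GC content, the differences of this comparison shrank to 0.01, 0.13 and 0.06. In treated against untreated knockout hearts C1qa lost its call under that correction (0.25, adjusted p = 0.13), as it did without treated knockout replicate 2 (0.24, adjusted p = 0.14), untreated replicate 1 (0.27, adjusted p = 0.14) or untreated replicate 2 (0.37, adjusted p = 0.075). C1qb was called in that comparison without untreated replicate 3 (0.72, adjusted p = 0.022). At an unchanged difference it was also called with only both knockout groups in the fit (adjusted p = 0.014), with the replicate block (0.012) and without treated wild-type replicate 1 (0.041) or 3 (0.011), and it was called when scaled without mitochondrial genes (0.63, adjusted p = 0.040). Treated wild-type and untreated knockout hearts differed by 0.04 ± 0.13 for C1qa, 0.13 ± 0.22 for C1qb and 0.17 ± 0.13 for C1qc (adjusted p = 0.82, 0.68 and 0.35).

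**Figure D2:**
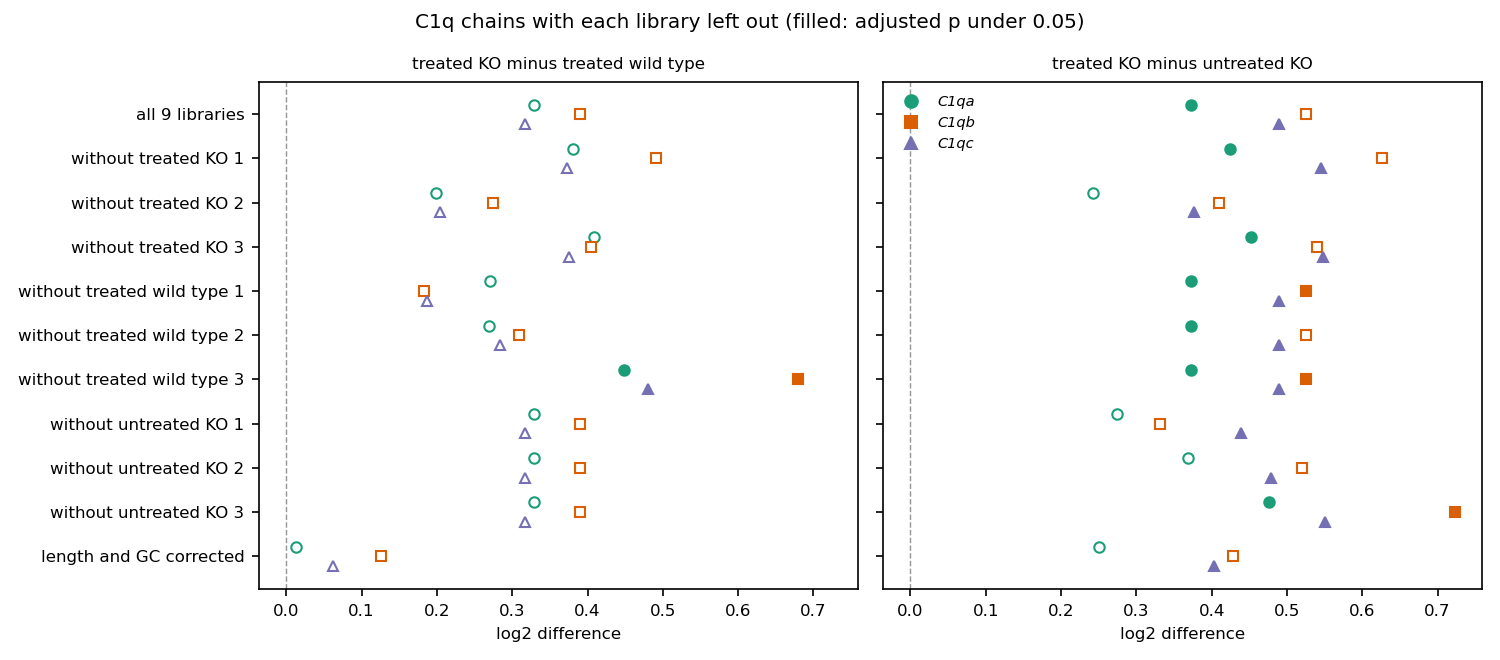
Log2 difference (horizontal axis) of the 3 C1q chains with all 9 libraries, with each library left out in turn and with transcript length and GC content corrected (rows), for treated knockout minus treated wild-type hearts (left) and minus untreated knockout hearts (right). Filled symbols have an adjusted p under 0.05. On the left the symbols fill only without treated wild-type replicate 3, and the corrected values lie at 0.01 to 0.13. On the right C1qc is filled in every row.

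Macrophage transcripts were set beside C1q. Csf1r, the receptor of macrophage colony-stimulating factor, was at 42.6, 50.1 and 44.9 in treated knockout hearts, 41.7, 42.4 and 50.9 in treated wild-type hearts and 32.9, 38.0 and 45.9 in untreated knockout hearts. The library that was highest for Csf1r in each group was also the highest for each C1q chain. The 19 of 20 macrophage markers listed summed to between 423 and 459.5 in treated knockout hearts, 364 and 514 in treated wild-type hearts and 323 and 428 in untreated knockout hearts. Lyz2 alone made up 183 to 191, 145 to 222 and 138 to 193 of these sums in the same order of groups. Cd68, a lysosomal protein of macrophages, was at 7.95 to 10.1, 6.97 to 11.9 and 4.83 to 7.46 in the same order of groups. Csf1r and Cd68 were above 0 in every heart, and Adgre1 was not among the listed genes. Between treated knockout and treated wild-type hearts 0 of the 9 macrophage markers tested were called by limma, edgeR or DESeq2, and 0 had an unadjusted p under 0.05 (median 0.09). Between treated and untreated knockout hearts 2 of the 9 were called higher and 0 lower (median 0.25). Of all tested genes 23.9% were called higher and 27.4% lower there, so these counts do not set the markers apart. Between the treated groups the shares were 12.0% and 15.9%. The part of macrophages in the C1q values was not tested, and the ratios that follow describe transcripts only and cannot decide it. In bulk tissue fewer cells of a type and less RNA per cell cannot be told apart.

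Relative to Csf1r, the 3 chains summed to 2.64, 2.94 and 2.59 in treated knockout hearts, 1.93, 2.11 and 2.52 in treated wild-type hearts and 2.31, 2.33 and 2.33 in untreated knockout hearts. Every treated knockout heart thus had more C1q transcript per Csf1r transcript than any other heart, though treated wild-type replicate 3 came close. The ratios use values without length and GC correction, under which the C1q differences between the treated groups shrank. Relative to all macrophage markers the sums were 0.266, 0.321 and 0.274, against 0.221, 0.226 and 0.250 in treated wild-type hearts and 0.235, 0.257 and 0.250 in untreated knockout hearts, again without overlap. For each of these contrasts with treated knockout hearts the two-sided exact permutation test gave p = 0.1, the smallest that 3 against 3 libraries allow, and 0.3 after adjustment over the 12 ratio tests made. The balance of the chains, per kb of the longest transcript, overlapped between the groups. C1qa over C1qb was 0.918 ± 0.0748 in treated knockout hearts, 0.974 ± 0.215 in treated wild-type hearts and 1.03 ± 0.140 in untreated knockout hearts (exact permutation p = 0.4 to 0.8).

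C1ra (ENSMUSG00000055172, chromosome 6, 124512405 to 124523443, plus strand) encodes the mouse form of the protease that C1q sets in motion. It was at 22.0, 21.9 and 21.2 in treated knockout hearts, 16.8, 15.4 and 18.4 in treated wild-type hearts and 14.7, 15.5 and 20.3 in untreated knockout hearts. The treated knockout hearts were close together and above every other heart, with untreated replicate 3 the nearest. C1ra averaged 21.7 ± 0.439 in treated knockout hearts and 16.9 ± 1.46 in treated wild-type hearts, a log2 difference of 0.35 ± 0.11 (adjusted p = 0.036), and it stayed at 0.36 after length and GC correction. Against untreated knockout hearts, at 16.8 ± 3.02, it was higher by 0.36 ± 0.11 (adjusted p = 0.017). Treated wild-type and untreated knockout hearts differed by 0.01 ± 0.11 (adjusted p = 0.95).

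The C1ra call against treated wild-type hearts was near the threshold. It was lost without any 1 of the treated libraries other than wild-type replicate 3 (adjusted p = 0.061 to 0.12), where the difference stayed between 0.29 and 0.36, and with no filter on low counts (adjusted p = 0.054). Its call against untreated hearts was lost without untreated replicate 1 (0.27, adjusted p = 0.081) or 2 (0.31, adjusted p = 0.070). C1rb, a near-identical copy, and C1s1, the partner protease, were not among the listed genes, so the share of reads from a copy is not known. Dcn, a proteoglycan of fibroblasts, ranged between 462 and 466 in treated knockout hearts, 424 and 499.8 in treated wild-type hearts, and 379.9 and 405 in untreated knockout hearts, with a difference of 0.04 between the treated groups (adjusted p = 0.69). Of the 13 fibroblast markers tested, 6 were called higher in treated knockout than in treated wild-type hearts and 0 lower. The 6 included Clec3b (0.53), Htra3 (0.45), Gsn (0.42) and Pi16 (0.41). Others were below 0 without passing, Col1a2 (-0.39), Col3a1 (-0.33) and Col1a1 (-0.28) among them, and the median of the 13 was 0.04. Of all tested genes 12.0% were called higher and 15.9% lower. The part of fibroblasts in the result for C1ra was not tested.

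Serping1 (ENSMUSG00000023224, chromosome 2, 84765387 to 84775444, minus strand) encodes C1 inhibitor, which inactivates C1r and C1s. It was at 124, 131 and 119 in treated knockout hearts, 97.4, 108 and 125 in treated wild-type hearts and 78.0, 85.8 and 92.2 in untreated knockout hearts. Every treated heart of either genotype lay above every untreated heart, and the treated groups overlapped through wild-type replicate 3. Treated knockout hearts, at 124 ± 6.05, were higher than untreated knockout hearts, at 85.3 ± 7.07, by 0.54 ± 0.09 on the log2 scale (adjusted p = 0.00034). Treated wild-type hearts, at 110.1 ± 13.7, were higher than the untreated knockout hearts by 0.36 ± 0.09 (adjusted p = 0.0092, and 0.051 without untreated replicate 1). Between the treated groups the difference was 0.18 ± 0.09 (adjusted p = 0.16, 95% interval -0.02 to 0.38), and it was 0.27 without treated wild-type replicate 3 (adjusted p = 0.031). Leaving out wild-type replicate 1 gave 0.095 (adjusted p = 0.50).

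Serping1 had the smallest standard error of the 7 tested members, and its call in treated against untreated knockout hearts held in every alternative run. Endothelial and fibroblast transcripts were set beside it. The 10 endothelial markers summed to between 1542 and 1886 in treated knockout hearts, 1303 and 1388 in treated wild-type hearts and 976 and 1059 in untreated knockout hearts. The 14 fibroblast markers summed to between 3052 and 3143, 2662 and 4068, and 2266 and 2365 in the same order. Between treated and untreated knockout hearts 9 of 10 endothelial and 10 of 13 tested fibroblast markers were called higher and 0 lower. Of all tested genes 23.9% were called higher and 27.4% lower there. Between treated wild-type and untreated knockout hearts 6 of 10 endothelial markers were called higher and 0 lower. In the same comparison 9 fibroblast markers were called higher and 3 lower, namely Gsn (-0.54), Dpep1 (-0.30) and Htra3 (-0.23). Of all tested genes 16.4% were called higher and 16.9% lower. The part of endothelium and fibroblasts in the rise of Serping1 was not tested.

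**Figure D3:**
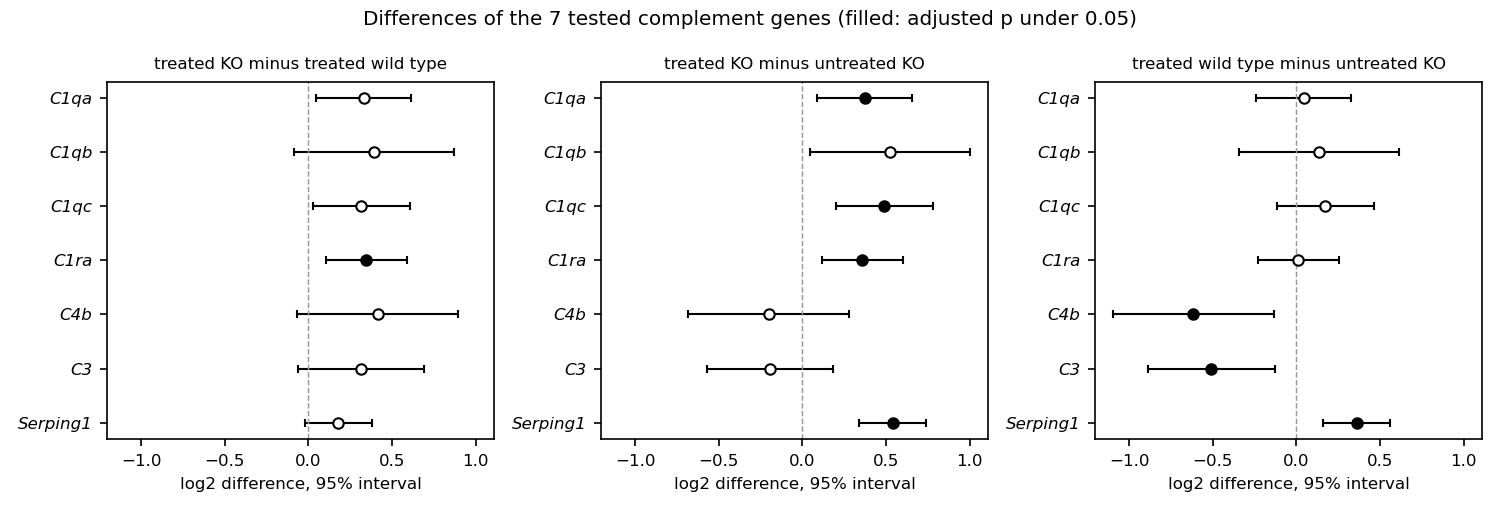
Log2 differences with 95% intervals (horizontal axis) of the 7 tested complement genes (rows) in 3 comparisons. Filled points have an adjusted p under 0.05. In the left panel all 7 points lie above 0 and only C1ra is filled, in the middle C1qa, C1qc, C1ra and Serping1 are filled, and on the right C3 and C4b lie below 0 and Serping1 above it.

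C3 and C4b were not called higher in either treated group than in untreated hearts, while between the treated groups their differences, 0.31 and 0.41, were close to the 0.32 to 0.39 of the C1q chains and C1ra. C3 (ENSMUSG00000024164, chromosome 17, 57203970 to 57228136, minus strand) encodes the protein on which all complement pathways meet. It was at 132, 179 and 146 in treated knockout hearts, 116, 125 and 124 in treated wild-type hearts and 131, 159 and 249.7 in untreated knockout hearts. The treated wild-type hearts were lower than all others and close together, while untreated replicate 3 stood far above its group. C3 was lower in treated wild-type than in untreated knockout hearts, at 122 ± 5.14 and 179.9 ± 62.1, a log2 difference of -0.51 ± 0.18 (adjusted p = 0.039). Without untreated replicate 3 the difference was -0.25 (adjusted p = 0.15). The call was also lost without any 1 of the treated wild-type libraries, untreated replicate 2 or treated knockout replicate 3 (adjusted p = 0.052 to 0.091), and by DESeq2 (adjusted p = 0.099), quantile normalization (0.062) and scaling without mitochondrial genes (0.076). Treated knockout hearts, at 152 ± 23.9, differed from treated wild-type hearts by 0.31 ± 0.18 (adjusted p = 0.20) with no overlap between the libraries, and by 0.19 without treated knockout replicate 2 (adjusted p = 0.51). From untreated knockout hearts they differed by -0.19 ± 0.18 (adjusted p = 0.37), and by 0.07 without untreated replicate 3.

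C4b (ENSMUSG00000073418, chromosome 17, 34728380 to 34743882, minus strand) encodes complement C4, which C1s cuts. It was at 12.8, 18.1 and 12.7 in treated knockout hearts, 8.34, 9.69 and 14.3 in treated wild-type hearts and 14.3, 13 and 24.7 in untreated knockout hearts. The groups overlapped throughout, with treated wild-type replicate 3 and untreated replicate 3 each the highest of its group. C4b was lower in treated wild-type than in untreated knockout hearts (10.8 ± 3.14 and 17.3 ± 6.43), a log2 difference of -0.62 ± 0.22 (adjusted p = 0.049). That call was lost without untreated replicate 3 (-0.34, adjusted p = 0.22). It was also lost without treated wild-type replicate 1 or 2, untreated replicate 1, or treated knockout replicate 1 or 3 (adjusted p = 0.055 to 0.16), and in other alternatives, edgeR (adjusted p = 0.064) and DESeq2 (adjusted p = 0.13) among them. Treated knockout hearts, at 14.5 ± 3.11, differed by 0.41 ± 0.22 from treated wild-type hearts (adjusted p = 0.18) and by -0.20 ± 0.22 from untreated knockout hearts (adjusted p = 0.47). The first of these was 0.62 without treated wild-type replicate 3 (adjusted p = 0.045), 0.26 without treated knockout replicate 2 (adjusted p = 0.50) and also 0.26 when wild-type replicate 1 was left out (adjusted p = 0.46). C4a, the near-identical copy of C4b in the mouse, was not among the listed genes, so its share of these reads is not known.

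Untreated replicate 3 was also the highest for transcripts of mesothelium, the lining of the heart surface. Upk3b, a uroplakin of mesothelial cells, was at 2.69, 4.17 and 2.68 in treated knockout hearts, 4.77, 3.92 and 2.69 in treated wild-type hearts and 11.8, 13.2 and 31.6 in untreated knockout hearts. The 9 mesothelial markers listed summed to between 19.6 and 30.4, 18.0 and 22.6, and 35.6 and 81.5 in the same order of groups. Alb, the liver's albumin gene, was listed at 0 in all treated hearts and was at 5.92, 2.83 and 0.553 in untreated hearts. Per kb, C3 over C4b was 10.8, 10.3 and 12.1 in treated knockout hearts, 14.5, 13.5 and 9.06 in treated wild-type hearts and 9.60, 12.8 and 10.6 in untreated knockout hearts. The part of surface tissue in the values of C3 and C4b was not tested.

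Cfd (ENSMUSG00000061780, chromosome 10, 79890853 to 79892655, plus strand) encodes factor D. It was at 0.311, 0.104 and 0 in treated knockout hearts, 0.0917, 0.115 and 0.0961 in treated wild-type hearts and 15.2, 7.99 and 34.4 in untreated knockout hearts. In reads these were 3, 1 and 0, then 1, 1 and 1, and then 126, 65 and 249. Summed over the libraries of a group, 4 reads in treated knockout hearts stood against 440 in untreated knockout hearts, a ratio of 0.00668 per recovered read (exact 95% interval 0.00181 to 0.0172, counting error only). Treated wild-type hearts had 3 reads and a ratio of 0.00537 to untreated knockout hearts (0.00110 to 0.0158). The treated groups were both at or close to the limit of detection, with a ratio of 1.24 (0.211 to 8.50).

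With no filter on low counts, limma gave Cfd log2 differences of -3.93 for treated against untreated knockout hearts (adjusted p = 2.6e-06) and -3.97 for treated wild-type hearts against the untreated ones (adjusted p = 4.3e-06). These are on the log2(value + 1) scale, which understates the change of a gene so low in the treated hearts. Some fat cell transcripts had the same pattern and others did not. Adipoq, the fat cell hormone adiponectin, was at 0.104, 0 and 0 in treated knockout hearts, 0.0917, 0 and 0 in treated wild-type hearts and 4.95, 3.32 and 17.0 in untreated knockout hearts. Cfd and Adipoq had the same order among untreated hearts, and their ratio was 3.07, 2.41 and 2.02. Adipoq, Plin1, Cidec, Car3, Pck1 and Ucp1 together summed to between 0.162 and 1.66 in treated knockout hearts, 0.115 and 0.367 in treated wild-type hearts and 38.1 and 148.8 in untreated knockout hearts. These 6 were picked out of the 11 fat cell markers listed after their values were seen, since heart muscle also expresses others such as Lpl and Fabp4. Fabp4, a carrier of fatty acids, went the other way and was called higher than in untreated hearts both in treated knockout (1.15, adjusted p = 1.6e-06) and in treated wild-type hearts (0.55, adjusted p = 0.00084). Cidea, a protein of fat droplets, did not pass (adjusted p = 0.21 and 0.39). All 11 summed to between 4300.1 and 4693, 3745 and 4751, and 4894 and 5212 in the same order. The summed atrial transcripts were also higher in untreated than in treated hearts. The 6 atrial markers summed to between 97.1 and 127 in treated knockout hearts, 62.8 and 850.0 in treated wild-type hearts and 1167 and 2591 in untreated knockout hearts. In untreated replicates 1, 2 and 3 the sums were 2591, 1167 and 1749, an order other than that of Cfd. Of the 850.0, in treated wild-type replicate 3, 842 was Nppa. How much atrium, surface fat and vessel each sample held is not given by the labels. A change of factor D expression and a difference in the tissue sampled cannot be told apart for Cfd.

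**Figure D4:**
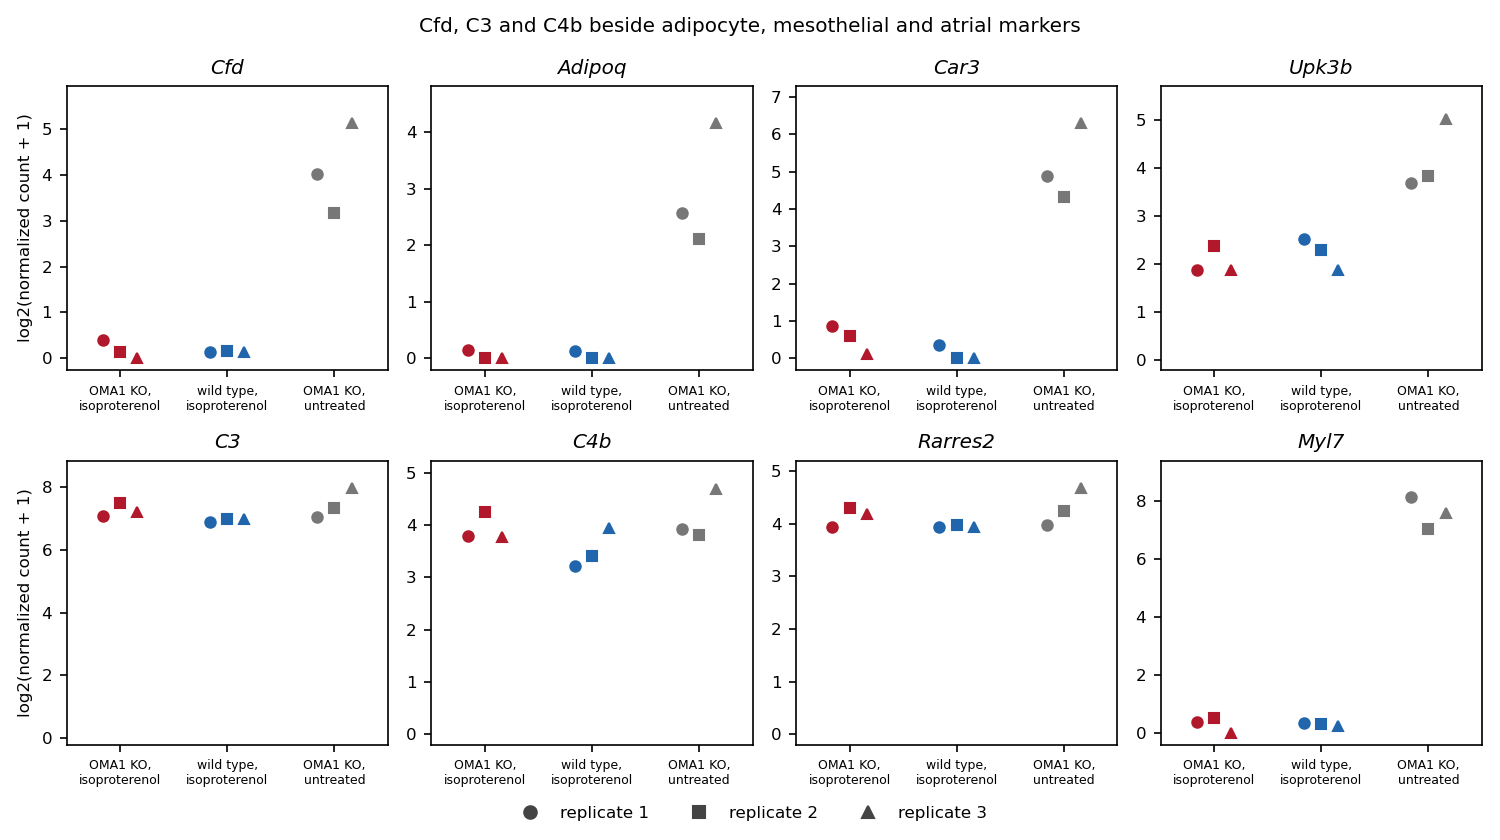
Cfd, C3 and C4b beside markers of fat cells (Adipoq, Car3), mesothelium (Upk3b) and atrial muscle (Myl7) and beside Rarres2, the gene whose pattern was most like that of C3. The vertical axis is log2(normalized count + 1), points are libraries, and shape gives the replicate number. Cfd and the 4 markers are higher in each of the 3 untreated hearts than in any treated heart, and untreated replicate 3 is the highest for every gene shown but Myl7.

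Per kb of the longest annotated transcript, Serping1 was the most abundant member in every group, at 70.3 ± 3.42 in treated knockout hearts, 62.3 ± 7.73 in treated wild-type hearts and 48.3 ± 4.0 in untreated knockout hearts (normalized counts per kb). In treated knockout hearts C1qb (41.7 ± 6.51), C1qa (38.2 ± 6.43), C1qc (33.5 ± 4.85) and C3 (29.7 ± 4.66) followed, and each differed from its neighbour in this order by less than its SD. C1ra (7.27 ± 0.147), C4b (2.70 ± 0.578) and Cfd (0.150 ± 0.172) came last and were apart from each other. Treated wild-type hearts had the same order. In untreated knockout hearts C3 (35.0 ± 12.1) stood second and Cfd (20.8 ± 14.8) sixth, ahead of C1ra (5.65 ± 1.01) and C4b (3.22 ± 1.20), although C3 and the C1q chains overlapped there, as did Cfd and C1qc (23.5 ± 1.94).

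Of 47 other complement genes, 25 were listed and 10 passed the filter. Between treated knockout and treated wild-type hearts 2 of the 10 were called higher and 0 lower (median 0.08), the same counts as before adjustment and with edgeR. Of all tested genes 12.0% were called higher and 15.9% lower there. Vtn, the plasma and matrix protein vitronectin that blocks membrane attack, was at 34.4, 29.6 and 31.9 in treated knockout hearts, 27.0, 24.4 and 21.2 in treated wild-type hearts and 21.3, 23.6 and 25.7 in untreated knockout hearts. Treated knockout hearts were above all others, by 0.39 ± 0.10 against treated wild-type (adjusted p = 0.013, and 0.12 after length and GC correction) and 0.43 ± 0.10 against untreated knockout hearts (adjusted p = 0.0032). Cd93, a surface protein of endothelial and myeloid cells once described as a C1q receptor, was at 225, 293 and 218 in treated knockout hearts, 184, 198 and 196 in treated wild-type hearts and 94.0, 109 and 112 in untreated knockout hearts. The 3 groups did not overlap. Cd93 was higher by 0.33 ± 0.11 against treated wild-type hearts (adjusted p = 0.031) and by 1.21 ± 0.11 against untreated knockout hearts (adjusted p = 2.3e-06). The first call was lost without treated knockout replicate 2 (0.20, adjusted p = 0.11), without treated wild-type replicate 1 (adjusted p = 0.093) or 2 (adjusted p = 0.061), and with only the treated groups in the fit (adjusted p = 0.054).

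Between treated and untreated knockout hearts 5 of the 10 were called higher and 0 lower (median 0.25), and between treated wild-type and untreated knockout hearts 4 were higher and 0 lower (median 0.25). Before adjustment, and with edgeR, both counts were the same. Of all tested genes 23.9% were called higher in the first of these comparisons and 16.4% in the second. Besides Vtn and Cd93 the complement genes called were an inhibitor, a receptor chain and a pattern sensor. Cd55, the decay-accelerating factor that breaks up the enzymes cleaving C3, was at 23.4, 27.8 and 22.7 in treated knockout hearts, 21.5, 21 and 24.6 in treated wild-type hearts and 12.0, 12.1 and 14.8 in untreated knockout hearts. All treated hearts were above all untreated ones, by 0.88 ± 0.11 in knockout (adjusted p = 2.8e-05) and 0.75 ± 0.11 in wild-type hearts (adjusted p = 0.00021), both against untreated knockout hearts. Itgam, the α chain of complement receptor 3 on myeloid cells, averaged 9.79 ± 1.06 in treated knockout hearts, 10.1 ± 1.77 in treated wild-type hearts and 4.60 ± 0.813 in untreated knockout hearts. It is among the genes called against untreated hearts but passed the filter through treated hearts alone, so its calls are no evidence of a difference. Colec11, a collectin that starts the lectin pathway, averaged 17.5 ± 1.71, 15.3 ± 2.08 and 11.2 ± 0.649 in the order treated knockout, treated wild-type and untreated knockout hearts (0.60 ± 0.11, adjusted p = 0.00068, and 0.41 ± 0.11, adjusted p = 0.014, against untreated).

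The other 5 tested genes, C1qbp, Colec12, Cd59a, Cr1l and Clu, passed in no comparison. Clu, the chaperone clusterin that also blocks membrane attack, was at 1265 in treated wild-type replicate 3 and between 403 and 538 in every other heart. Among the genes below the filter were Cfb, the factor B that factor D cuts, at 2.59 to 4.17 in treated knockout, 0.692 to 3.46 in treated wild-type and 1.21 to 5.11 in untreated knockout hearts, and C2, at 1.14 to 3.34, 1.25 to 1.5 and 1.69 to 6.63 in the same order of groups. C5ar1, the main receptor of C5a, ranged between 6.98 and 9.80 in treated knockout hearts, 5.59 and 7.30 in treated wild-type hearts, and 3.14 and 4.56 in untreated knockout hearts. Those values were too low for the test.

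**Figure D5:**
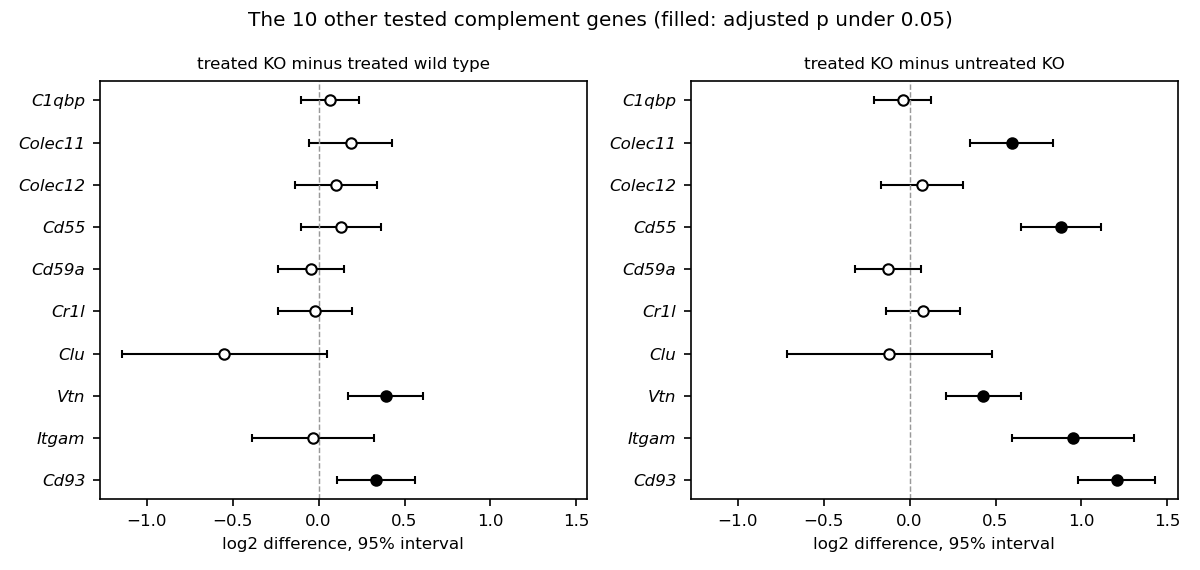
Log2 differences with 95% intervals (horizontal axis) of the 10 other complement genes that passed the filter (rows), for treated knockout minus treated wild-type hearts (left) and minus untreated knockout hearts (right). Filled points have an adjusted p under 0.05. Vtn and Cd93 are filled on both sides, and Cd55, Itgam and Colec11 on the right only.

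Among 8117 tested genes with a symbol, those most like each member were found by the root-mean-square difference of their centred log2 values over the 9 libraries, which share the same hearts and depths. The gene most like C1qb was C1qc (0.175), followed by Bst2 (0.181), an antiviral membrane protein, and Cotl1 (0.186). C1qa was closest to Fgfr1 (0.0831), Prr13 (0.0875) and Npdc1 (0.0889), with C1qc at 0.0941. C1qb was further from C1qa (0.194) than C1ra (0.122) or Serping1 (0.162) was. C1qc was likewise closer to Serping1 (0.119) than to C1qb. C1qc was closest to Sfxn3 (0.0788), Cygb (0.0808) and Bcl2 (0.0820), and C1ra to Trrap (0.0719), Rasa2 (0.0752) and Pltp (0.0769). Serping1 had the closest matches of all members, in Pnp (0.0435), Mdfic (0.0473) and Tnfrsf1a (0.0499).

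C3 was closest to Rarres2 (0.101), which encodes the chemoattractant chemerin, then Igfbp6 (0.161) and Cd274 (0.169). Rarres2 was at 14.4, 18.7 and 17.3 in treated knockout hearts, 14.3, 14.8 and 14.3 in treated wild-type hearts and 14.7, 18.0 and 24.7 in untreated knockout hearts. Like C3, it was even among treated wild-type hearts and highest in untreated replicate 3. C4b was closest to Trf (0.168), the transferrin gene, Igfbp6 (0.176) and C3 (0.197). Cfd was closest to Car3 (0.479) and Scd1 (0.548), both abundant in fat, and to Bmp10 (0.605), a growth factor gene of atrial muscle, though these distances were far larger than for any other member. Car3 and Bmp10 had passed the filter through untreated hearts alone, and Bcl2, named for C1qc, through treated hearts alone. Genes below the filter were not compared, Adipoq, Plin1, Cidec, Pck1 and Ucp1 among them, so a closer match to Cfd may be missing.

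The lists of cell and response markers are given as genes called higher and lower of those tested, with the median log2 difference of the tested genes. Between treated knockout and treated wild-type hearts, where 12.0% of all tested genes were called higher and 15.9% lower, fibroblasts had 6 and 0 of 13 (median 0.04). Endothelium had 7 and 0 of 10 (0.30) and interferon-stimulated genes 9 and 0 of 20 (0.44). Fat cells had 1 and 0 of 6 (0.17), cardiomyocytes 2 and 3 of 8 (-0.08) and the acute phase list 1 and 3 of 5 (-0.31). The 5 tested genes of that list were Il6st, Stat3, Fgl2, Il1r1 and Nfkbia. Hp, Lcn2 and A2m were below the filter, so the count does not cover them. Activated fibroblasts had 0 and 0 of 6 (-0.74). Myl7, Myl4, Sln and Bmp10 of atrial muscle, the mesothelial Upk3b and the fat cell gene Car3 passed the filter through untreated hearts alone. They were low in all treated hearts, so their lack of a call between the treated groups says nothing. No count is given here for atrial muscle and mesothelium. For liver (1 gene tested), lymphocytes and neutrophils (1) and red cells (3) no gene passed between the treated groups. In these lists without a call limma had 0 genes at an unadjusted p under 0.05, and edgeR and DESeq2 called 0.

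Between treated and untreated knockout hearts the counts were 10 and 0 for fibroblasts (median 0.72), 9 and 0 for endothelium (0.68) and 15 and 0 for interferon-stimulated genes (0.62). They were 1 and 3 for fat cells (-0.31), 0 and 2 for cardiomyocytes (-0.09) and 3 and 1 for the same 5 genes of the acute phase list (0.24). Of all tested genes 23.9% were called higher and 27.4% lower. Some genes had passed the filter through 1 side alone and had to differ. Myl7, Myl4, Sln and Bmp10 of atrial muscle, the mesothelial Upk3b and the fat cell gene Car3 passed through untreated hearts alone, and Thbs4, Ltbp2 and Lox of activated fibroblasts and the interferon-stimulated Ifi44 and Rtp4 through treated hearts alone. No count is therefore given for atrial muscle, mesothelium and activated fibroblasts. The counts and medians of interferon-stimulated genes and fat cells include Ifi44, Rtp4 and Car3, whose calls are no evidence of a difference. The tested genes of liver, lymphocytes and neutrophils, and red cells did not pass (1 red cell gene was lower at an unadjusted p under 0.05, and edgeR called 0).

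Interferon-stimulated genes and the white cell marker Ptprc were highest in the libraries in which C1q was. The interferon-stimulated genes summed to 973, 1327 and 1067 in treated knockout hearts, 736, 799 and 882 in treated wild-type hearts and 630.0, 817 and 874 in untreated knockout hearts. Ptprc was at 11.4, 16.1 and 11.7 in treated knockout hearts, 9.63, 8.42 and 15.5 in treated wild-type hearts and 10.9, 12.4 and 14.9 in untreated knockout hearts. Both were highest in replicate 2 of the treated knockout hearts and in replicate 3 of both other groups, as each C1q chain was, and their part in the values of C1q was not tested.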

How the data were processed

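RNA from 9 hearts was measured by TruSeq RNA-seq. The submitters' processing notes name cutadapt, RSEM 1.17, limma and GRCm38; no source used here gives the aligner, the settings or the strand of counting. What was deposited is a signal, namely the authors' RSEM expected counts scaled to library size. They were whole multiples of 1 step per library: below 1000 reads, 100.0% of values were whole within 0.02 reads. On those reads edgeR 4.0.16 called 2429, 4347 and 2799 genes in the 3 comparisons (treated knockout against treated wild type, treated against untreated knockout, treated wild type against untreated knockout), and limma 2379, 4388 and 2839.

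The main test was limma 3.58.1 in R 4.3.3 on log2(value + 1), for the 8543 genes with at least 10 in at least 3 libraries, with all 9 libraries, a mean-variance trend, two-sided tests and Benjamini-Hochberg adjustment over all genes (threshold 0.05). Fold changes are on that scale. Positions and transcript lengths came from GENCODE M21. The counts of Cfd were compared by exact conditional binomial intervals. Alternatives were other pseudocounts (0.5 and 10), no filter, other scalings, only the groups compared, a replicate block, length and GC correction (splines with 5 degrees of freedom), each library left out, edgeR and DESeq2 1.42.0. Leaving out the 3 libraries that stood apart was added after seeing the data. Named genes are the 8 members, other complement genes that passed, the 3 genes most like each member and defining cell markers. The members, lists and motifs were chosen with earlier results of these data known, the motifs with the promoters in view. Of the other complement genes first listed, 1 is not reported here. Beside these genes, 13 lists of cell and response markers were counted. The scripts were tested on simulated data.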

Additional observations from a re-analysis of the deposited data

How the results depend on the processing

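Of the members' values under the alternatives, 378 kept their direction and their side of the threshold, 37 lost a call, 17 gained one and 9 changed sign. For the other genes named the counts were 364, 7, 0 and 7. The number of members called between treated knockout and treated wild-type hearts, 1, was 0 with no filter and ran from 0 to 6 with each library left out. It was 0 without any 1 of the treated libraries other than wild-type replicate 3, 6 without that library and 6 with the 3 libraries that stood apart left out, an alternative chosen after seeing the data (5 and 3 in the other comparisons). Between treated and untreated knockout hearts, 4 members were called, and 2 to 5 with each library left out, 2 without untreated replicate 1 or 2. Between treated wild-type and untreated knockout hearts, 3 were called, and 1 with quantile normalization, 1 when scaled without mitochondrial genes, 1 by DESeq2 and 1 to 3 with each library left out, 1 without untreated replicate 1 or 3, treated wild-type replicate 1 or 2 or treated knockout replicate 3. The cause was not tested for any of these.

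Over all genes, 2379 passed between the treated groups and 1342 to 2380 with each library left out, the lowest without treated knockout replicate 2. Scaling without mitochondrial genes gave 1390 higher and 1065 lower there, against 1023 and 1356 as deposited, 2834 and 1669 between treated and untreated knockout hearts, against 2043 and 2345, and 1806 and 1113 between treated wild-type and untreated knockout hearts, against 1399 and 1440.

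Itgam, at -0.03 between the treated groups, was 0.012 when scaled without mitochondrial genes, 0.024 after length and GC correction, 0.033 without the 3 libraries and -0.14 to 0.089 with each library left out. With each library left out, treated against untreated knockout hearts gave -0.40 to 0.067 for C3 and -0.37 to 0.069 for C4b. Treated wild-type against untreated knockout hearts gave -0.075 to 0.15 for C1qa, -0.15 to 0.34 for C1qb, -0.073 to 0.15 for C1ra and -0.040 to 0.13 for Vtn.

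Over all tested genes, the deviations of same-numbered libraries from their group means had correlations from -0.14 to 0.18 in the 3 pairs of groups. Whether same-numbered libraries shared a batch is not given by the labels. With the replicate block 2258, 4316 and 2755 genes and 1, 5 and 3 members passed in the 3 comparisons. At these depths Cfd, Adipoq and Alb were at the limit of a few reads in treated hearts.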
